A study of Rattus norvegicus with 24 samples.

Results

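Interleukins and tumour necrosis factor are secreted signals of inflammation, chemokines draw leukocytes to a tissue, and many of these signals act through NF-kB, a family of transcription factors held in the cytoplasm by inhibitor proteins. When a receptor is engaged, adaptor and kinase complexes remove the inhibitor, NF-kB enters the nucleus, and among the genes it switches on are those of its own inhibitors, which close the loop. In the resting brain most of these cytokines are scarce, and microglia, the resident macrophages, are their best known source. The 10 genes described here were chosen by name from this pathway. They are the cytokines Il1b, Il6, Il18 and Tnf, the chemokines Ccl2 and Ccl5, the adaptor Tab3, the inhibitors Nfkbia and Tnfaip3, and Tnfaip6, a secreted hyaluronan-binding protein induced by tumour necrosis factor. All 10 were found, among 32883 reference genes in each table.

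The animals were 24 adult male Sprague-Dawley rats, whose frontal cortex was collected 24 h after exposure by inhalation at the tungsten particle concentrations given next. There were 8 rats in each group, at 0 mg/m3 (Control), 5 mg/m3 (Low) and 80 mg/m3 (High), with 1 stranded mRNA library per rat. The labels describe the RNA as coming from cell lines of this region, whereas the study describes biopsies. Rats are named below by library number, which runs from 49 to 56 for Control, then to 64 for Low and from 65 to 72 for High. The level used here is the scaled coverage, the mean read depth per base of a gene divided by the sum of that depth over all reference genes of the library and multiplied by 1000000. It is a level per base, so that different genes can be set beside each other. No read counts were used, so that the counting error of a value is unknown.

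Some features of the libraries touched these genes. The 8 Low tables held 0 loci assembled outside the reference, against 46334 to 159573 in Control and 50235 to 64010 in High. They listed 12813 to 14387 reference genes at 0, more than any of the other tables, which listed from 11323 (High) to 12400 (High). Deposited coverage divided by FPKM, which gives the bases behind the FPKM scaling, was 3.34 to 6.42 gigabases in Low, against 5.05 to 7.86 in Control and 4.95 to 7.65 in High. Exposure to 5 mg/m3 and the kind of table therefore cannot be told apart. Markers of neurons, cortical layers and microglia were present in every library, and 12 of 12 microglial markers summed to a scaled coverage of 282 to 443 (Control), 335 to 409 (Low) and 310 to 478 (High). Of the 7 T cell markers, the 6 other than Cd4 had group medians of at most 0.261, and Cd4, which rat microglia and macrophages also express, had group medians of 7.02 to 7.56. Over 4 of 4 B cell markers the sum was at most 0.848. Within High, libraries 65, 66 and 67 stood apart in striatal markers, with sums of 1737, 1098 and 1286 over 9 of 9 genes. The other 5 High libraries had 241 to 533. Control ran from 476 to 1111, the highest in library 55, and Low from 325 to 810. Where High libraries 65 to 67 are left out below, all Control libraries are kept. In bulk tissue, fewer cells of a type and less RNA per cell cannot be told apart.

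The promoters of 3 members are shown because they held a kB motif, the 10-letter element bound by NF-kB, within the 250 bases before the RefSeq start site on the GRCr8 assembly. Of the 10 members, 8 had an entry among the promoter sequences. The motif was searched for on both strands, and its matches are in capitals. The windows of 250 bases, all read on the minus strand, lie at chr6:78597073-78597322 for Nfkbia, at chr1:15543980-15544229 for Tnfaip3 and at chr4:5894576-5894825 for Il6.
Nfkbia: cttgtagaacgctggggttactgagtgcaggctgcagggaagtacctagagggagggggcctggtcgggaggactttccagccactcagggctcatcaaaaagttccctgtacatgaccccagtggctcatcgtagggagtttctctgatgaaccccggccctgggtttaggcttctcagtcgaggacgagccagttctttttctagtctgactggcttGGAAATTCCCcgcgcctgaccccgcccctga
Tnfaip3: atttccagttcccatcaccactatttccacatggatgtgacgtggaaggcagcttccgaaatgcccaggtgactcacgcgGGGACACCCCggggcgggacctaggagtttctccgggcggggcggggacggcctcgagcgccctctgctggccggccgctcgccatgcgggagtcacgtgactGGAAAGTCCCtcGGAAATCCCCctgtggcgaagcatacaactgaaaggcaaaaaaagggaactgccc
Il6: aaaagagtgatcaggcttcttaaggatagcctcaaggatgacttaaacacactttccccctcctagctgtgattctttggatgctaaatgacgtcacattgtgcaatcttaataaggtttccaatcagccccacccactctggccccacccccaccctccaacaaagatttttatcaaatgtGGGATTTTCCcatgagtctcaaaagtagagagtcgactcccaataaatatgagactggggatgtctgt
In Nfkbia the first base of the match lay 31 bases before the start, and in Il6 68 bases before it. Tnfaip3 held matches at 3 separate places, 170, 67 and 55 bases before the start, and the one at 170 was read on both strands. The promoters of Il1b, Il18, Tnf and Tnfaip6 and both promoters of Tab3 held no match in this window. Among all 33469 promoters of the same length, 2117 (6.33%) held at least 1 match. A match is a description of the letters and does not show that a factor is bound.

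The 10 genes spanned a wide range of levels. Nfkbia was the most abundant, with group medians from 20.9 to 29.6. Il18, Tnfaip3, Tnfaip6 and Tab3 followed with group medians from 2.41 to 5.97, and their ranges across libraries overlapped one another. Il1b, Il6, Ccl2, Ccl5 and Tnf had group medians of at most 0.590. The first 5 were above 0 in all 24 libraries and had a mean of at least 1, the level required to enter the fit. The other 5 were below that level and were described by their values, by detection and by exact permutation tests.

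Across the 5 members in the fit, none passed the threshold in any of the 3 comparisons. With limma over 15644 genes and an adjusted p threshold of 0.05, 0 of 5 members were called between Low and Control, where 6.11% of all genes were called. Between High and Control 0 of 5 were called, against 0% of all genes, and between Low and High 0 of 5, against 11.7% of all genes. Without adjustment, p was under 0.05 for 3 members in Low against Control (Il18, Tnfaip3 and Tnfaip6), for 2 in High against Control (Il18 and Tnfaip6) and for 1 in Low against High (Tnfaip3). Over all genes tested, the unadjusted count was 2885 (18.4%) in Low against Control, 330 (2.11%) in High against Control and 4545 (29.1%) in Low against High. When coverage was left unscaled, the sign of Nfkbia, Tnfaip3 and Tab3 in High against Control and of Il18 and Tab3 in Low against High turned. In all 30 comparisons of a member between a pair of groups, the values of the groups overlapped. The same count was not made over all genes, so that it does not set the members apart.

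**Figure D1:**
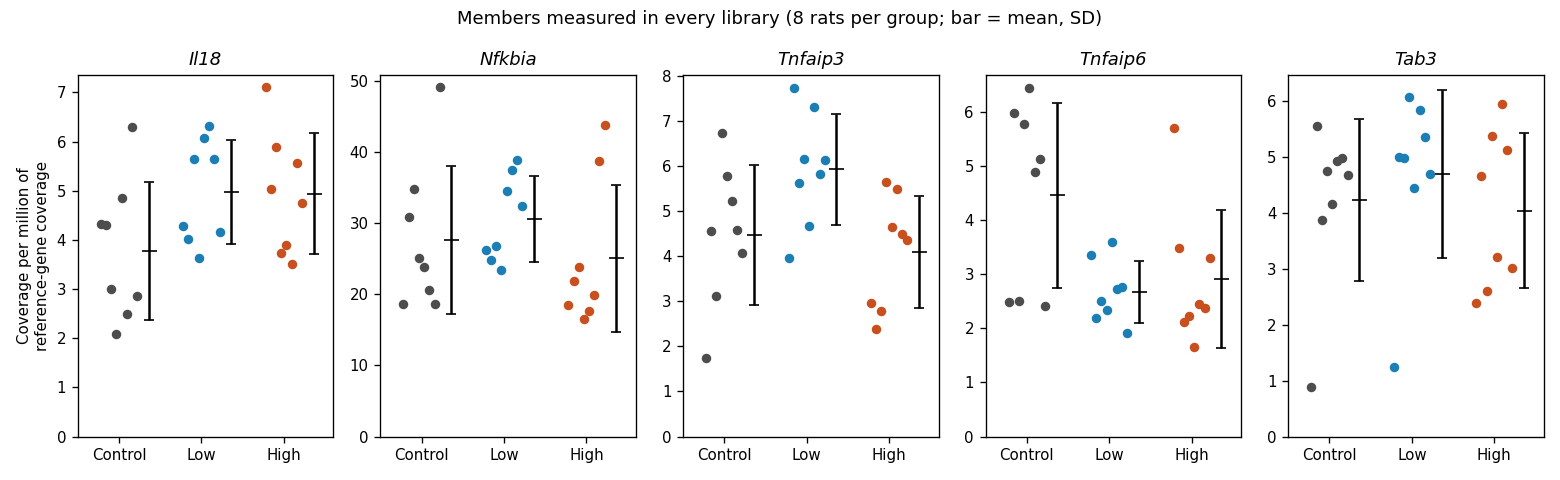
Scaled coverage of the 5 members measured in every library, by group. Each point is 1 rat, in order of library number within a group, and the bar beside the points gives the mean and SD of 8 rats. Control library 49 and Low library 57 lie far below the rest for Tab3, and the Control values of Tnfaip6 fall into a high and a low set.

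Among the cytokines, Il18 was the only one well measured. It encodes a cytokine of the interleukin-1 family that is stored as a precursor and released after cleavage by caspase-1. Its lowest, median and highest scaled coverage was 2.09, 3.65 and 6.29 in Control, 3.63, 4.96 and 6.32 in Low, and 3.50, 4.89 and 7.11 in High. Both exposed groups lay higher than Control in their medians, while the highest Control value, 6.29 in library 55, was above 7 of the 8 values in each exposed group. The log2 fold change of scaled coverage plus 1 was 0.36 (SE 0.161, limma adjusted p = 0.231) in Low against Control and 0.34 (SE 0.161, limma adjusted p = 0.999) in High against Control. Between Low and High it was 0.02, with a 95% interval from -0.32 to 0.35. Without High libraries 65 to 67, an exclusion made after their striatal markers were seen, the difference between High and Control was 0.19 (limma adjusted p = 0.9996). The gene overlaps Bco2 and Tex12 on the opposite strand, whose mean scaled coverage was at most 0.719 and 0.323 in any group.

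Il1b, the founding pro-inflammatory interleukin, was near 0 in most libraries. It had a lowest, median and highest value of 0.123, 0.296 and 1.03 in Control, 0, 0.200 and 0.823 in Low, and 0.0839, 0.350 and 0.781 in High. It was listed at 0 in Low libraries 57, 61 and 63, at 3.34, 3.50 and 3.71 gigabases, and in none of Control or High. The other Low libraries, at 3.35 to 6.42 gigabases, held Il1b above 0. As deposited, its highest depth in any library was 1.92 reads per base. The difference in mean log2 value was -0.11 in Low against Control (exact permutation test, p = 0.485) and 2.47e-05 in High against Control (exact permutation test, p = 0.9998).

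Il6, an interleukin of the acute-phase response, was listed at 0 in 4 Control, 4 Low and 2 High libraries. Its median was 0.0889 in Control, 0.0463 in Low and 0.175 in High, and its highest values were 0.976, 0.524 and 0.406. The High libraries thus had the higher median but the lowest maximum, and the spread within each group exceeded the distance between groups. The exact permutation test gave p = 0.702 for Low against Control and p = 0.853 for High against Control.

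Tnf, which encodes tumour necrosis factor, had the lowest mean over all 24 libraries, although Il6 and Ccl2 had lower medians in Low and were above 0 in fewer libraries. Its scaled coverage had a lowest, median and highest value of 0, 0.0616 and 0.175 in Control, 0, 0.171 and 0.235 in Low, and 0.0843, 0.177 and 0.315 in High. It was listed above 0 in 7 Control, 7 Low and 8 High libraries. At a level of at least 0.1, only 2 Control libraries remained. Every High library was above 6 of the 8 Control libraries. The 3 highest High values, 0.208 to 0.315, were those of libraries 65, 66 and 67, against 0.0843 to 0.183 in the other 5. Within High these 3 libraries had the highest striatal sums. They also had the highest microglial sums in High, 384, 461 and 478 against 310 to 382. The part of tissue composition in the Tnf values was not tested. The difference in mean log2 value was 0.15 in High against Control (exact permutation test, two-sided, p = 0.00497) and 0.09 in Low against Control (exact permutation test, p = 0.0976). These p-values stand among 30 such tests of the members, of which 3 gave p under 0.05, and were not adjusted. The tests share groups and were not run over all genes, so that no background share stands beside the 3. Without libraries 65 to 67 the difference in High against Control was 0.090 (exact permutation test, p = 0.0474), and that in Low against High was -0.00334 (exact permutation test, p = 0.953). When all reference genes were fitted with no filter on low values, the limma adjusted p for High against Control was 1. The deposited depth of Tnf was at most 0.806 reads per base in any library, so that the group difference rests on few reads. Tnf also lies inside other annotated genes, namely AABR07044408.1 on the same strand and RT1-CE7, RT1-CE4 and RT1-CE1 on the opposite strand. The same-strand gene averaged 0.529 (Control), 0.253 (Low) and 0.483 (High) in scaled coverage. Its reads and those of Tnf cannot be told apart at this locus. In 7 of 16 Control and High tables, a same-strand assembled locus over Tnf ran 34731 to 65889 bases past its 3' end. There Tnf had 0 to 0.444 times the depth of that locus, which was 0.751 to 16.7 reads per base. Tnf was listed at 0 under such a locus in Control library 51. The part of this sharing of reads in the Tnf values was not tested.

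**Figure D2:**
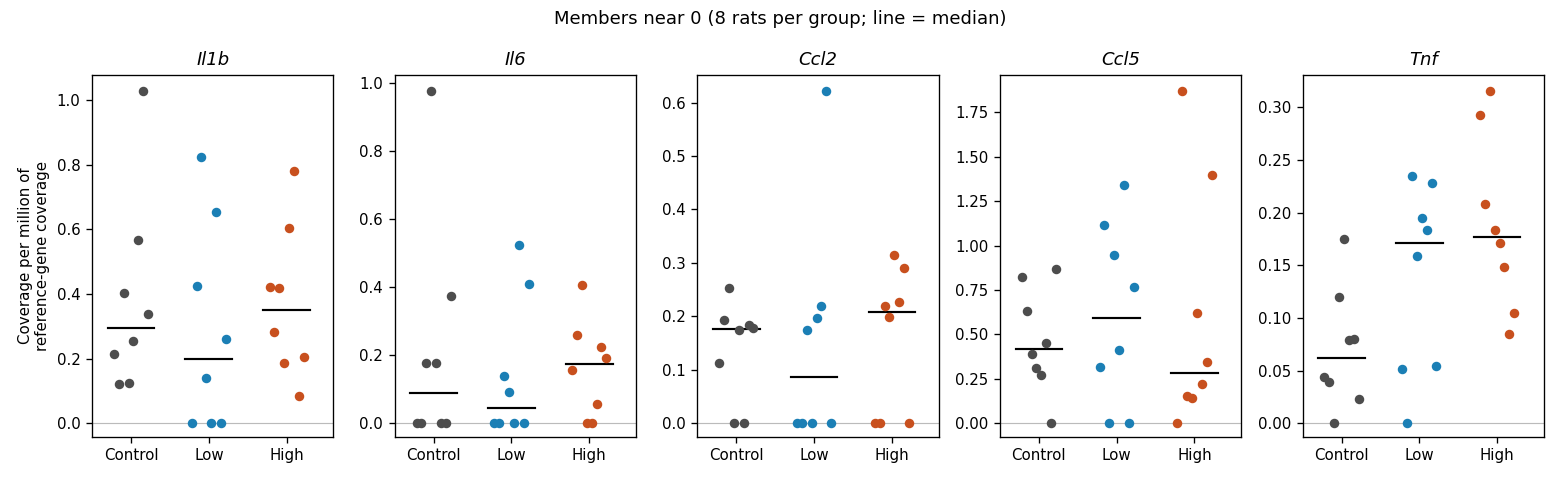
Scaled coverage of the 5 members near 0, by group. Each point is 1 rat and the line is the group median. For Tnf all 8 High values lie between 0.0843 and 0.315, above 6 of the 8 Control values.

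The chemokines were near 0 as well. Ccl2, which attracts monocytes, was listed at 0 in 2 Control, 4 Low and 3 High libraries. Its median was 0.177 in Control, 0.0870 in Low and 0.209 in High, with highest values of 0.253, 0.621 and 0.315. The exact permutation test gave p = 0.974 for Low against Control, p = 0.790 for High against Control and p = 0.859 for Low against High.

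Ccl5, which attracts T cells, was listed at 0 in 1 Control, 2 Low and 1 High libraries. Its median was 0.420 in Control, 0.590 in Low and 0.283 in High. Its highest values were 0.866 in Control, 1.34 in Low and 1.87 in High, the last of these in library 66. The values of High were the most dispersed, with 6 libraries at or below 0.621 and libraries 66 and 72 at 1.87 and 1.40. The exact permutation test gave p = 0.632 for Low against Control and p = 0.837 for High against Control.

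Among the signalling components, Tab3 encodes an adaptor that links ubiquitin chains to the kinase TAK1. Its lowest, median and highest values were 0.893, 4.71 and 5.56 in Control, 1.24, 4.99 and 6.06 in Low, and 2.40, 3.93 and 5.95 in High. The groups overlapped over most of their range, and Control library 49 and Low library 57 lay far below the others of their groups. The log2 fold change was 0.13 (95% interval -0.37 to 0.63, limma adjusted p = 0.801) in Low against Control and -0.02 (95% interval -0.52 to 0.48, limma adjusted p = 0.999) in High against Control. It was -0.06 in Low against Control without Control library 49 and 0.12 without both libraries 49 and 57, an exclusion chosen after seeing the data.
The assembled loci gave a further view of Tab3 in the 16 Control and High tables. In 13 of them a locus on the same strand ran 3886 to 4342 bases past the annotated 3' end of the gene. Averaged over the whole locus, the deposited depth was 16.0 reads per base in Control library 49 and 13.6 to 20.3 in the other 12 tables. The annotated gene had 1.78 reads per base in library 49, or 0.112 times the depth of the locus, whereas in the other 12 tables it had 0.391 to 0.798 times that depth. The locus did not span the gene in library 49, while it did in most of the other tables, so that the stretches averaged differ and the depth past the annotated end alone was not measured.

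Nfkbia encodes IkBa, the inhibitor that keeps NF-kB in the cytoplasm. Its lowest, median and highest values were 18.6, 24.4 and 49.1 in Control, 23.5, 29.6 and 38.9 in Low, and 16.5, 20.9 and 43.8 in High. All 8 Low libraries were above 23, while 6 of the 8 High libraries lay between 16.5 and 23.8 and libraries 71 and 72 reached 38.7 and 43.8. The log2 fold change was 0.19 (95% interval -0.23 to 0.61, limma adjusted p = 0.655) in Low against Control and -0.15 (95% interval -0.57 to 0.27, limma adjusted p = 0.999) in High against Control. Between Low and High it was 0.34 (SE 0.204, limma adjusted p = 0.275).

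Tnfaip3 encodes A20, a ubiquitin-editing enzyme that shuts off signalling to NF-kB. Its lowest, median and highest values were 1.75, 4.57 and 6.74 in Control, 3.96, 5.97 and 7.72 in Low, and 2.39, 4.43 and 5.65 in High. Of the 8 Low values, 5 were above the highest High value. The log2 fold change was 0.46 (SE 0.181, limma adjusted p = 0.0948) in Low against High, a 1.38-fold difference on the scale of scaled coverage plus 1, and the exact permutation test gave p = 0.0145 before adjustment. It was 0.38 (SE 0.181, limma adjusted p = 0.268) in Low against Control and -0.08 (SE 0.181, limma adjusted p = 0.999) in High against Control.
The adjusted p and the size of this difference depended on which libraries were kept. Without Control library 49 the difference in Low against High stayed at 0.46 and its limma adjusted p was 0.0394. That library enters only through the shared estimate of the spread and the filter on the mean level. Calls over all genes in Low against High then rose from 1828 to 2676 (17.1%). In 12 of 16 Control and High tables, a same-strand assembled locus ran 1618 to 1807 bases past the annotated 3' end of Tnfaip3. In library 49 the annotated gene had 0.491 times the depth of that locus, against 0.796 to 1.23 times in the others. The locus did not span the gene in library 49, so that the stretches averaged differ. Without High libraries 65 to 67 the difference in Low against High fell to 0.21 (limma adjusted p = 0.504). These 3 libraries held the lowest High values of Tnfaip3, 2.39 to 2.96 against 4.37 to 5.65 in the other 5, and the highest High sums of striatal markers. They also held the lowest High sums of 7 of 7 cortical layer markers, 113 to 155 against 171 to 193 in the others. Over all 24 libraries with group means removed, Tnfaip3 and the cortical layer sum had a Spearman rho of 0.849. These points share library and depth, and the part of tissue composition in the difference was not tested.

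Tnfaip6 was the member with the largest fitted differences from Control. Its lowest, median and highest values were 2.42, 5.02 and 6.45 in Control, 1.91, 2.62 and 3.60 in Low, and 1.65, 2.41 and 5.71 in High. In Control, libraries 50, 52, 53, 54 and 55 lay between 4.90 and 6.45, whereas libraries 49, 51 and 56 lay between 2.42 and 2.51, within the range of both exposed groups. Libraries 49, 51 and 56 also had the most assembled loci in Control, 61916, 66427 and 159573 against 46334 to 51856. Their mitochondrial share of coverage was 26.4%, 30.0% and 27.7%, against 22.1% to 25.7% in the other Control libraries. In High, only library 65 reached the high Control values, at 50311 assembled loci and a share of 27.1%. The part of these library features in the Tnfaip6 values was not tested. The log2 fold change was -0.51 (SE 0.190, limma adjusted p = 0.124) in Low against Control, a ratio of 0.700 on the scale of scaled coverage plus 1. It was -0.47 (SE 0.190, limma adjusted p = 0.999) in High against Control and -0.05 (95% interval -0.44 to 0.34) in Low against High. The exact permutation test gave p = 0.0204 for Low against Control and p = 0.0640 for High against Control, both unadjusted. The 2 comparisons share the same Control libraries, so that the spread of Control enters both.

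**Figure D3:**
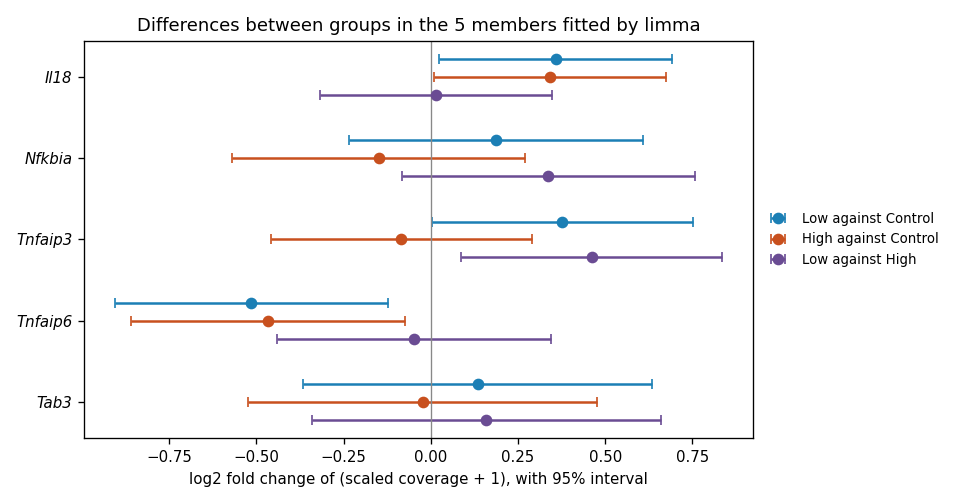
Log2 fold change of scaled coverage plus 1 between groups, with 95% intervals from limma before adjustment, for the 5 members in the fit. The points for Tnfaip6 lie at -0.51 and -0.47 in the comparisons with Control, and no difference passed the adjusted threshold.

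The 5 members in the fit were also compared with each other from rat to rat. With group means removed, Spearman's rho over 24 libraries was 0.569 between Tnfaip3 and Tab3, which had rho of 0.849 and 0.556 with the cortical layer sum, and -0.376 between Il18 and Tnfaip3. Nfkbia had a rho of -0.139 with Tnfaip3, the other inhibitor, and of 0.00609 with Tnfaip6. These are descriptions over libraries that share depth and tissue composition.

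The genes closest to each member were picked as the highest rho among all genes in the fit, so that high values follow from the choice. For Nfkbia the closest was Ddit4, an inhibitor of mTORC1 signalling (rho 0.896 over 24 libraries, group means removed), followed by Sgk1 (0.765) and Col16a1 (0.746). Ddit4 was at 61.7 and 87.6 in High libraries 71 and 72, where Nfkbia was highest in that group, and at 30.7 in High library 68, where Nfkbia was lowest. In High libraries 65, 66 and 67, by contrast, Ddit4 stayed at 56.7, 56.5 and 56.6 while Nfkbia was at 18.5, 21.9 and 23.8. For Tnfaip3 the closest were Aff3 (0.905), Hivep2 (0.879) and Dlgap2 (0.877). For Tab3 they were Mon1b (0.909), Kbtbd6 (0.897) and Sorcs1 (0.883). The closest genes to Il18 and Tnfaip6 had lower values, 0.750 for AABR07011057.2 and 0.730 for Cdc40.

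**Figure D4:**
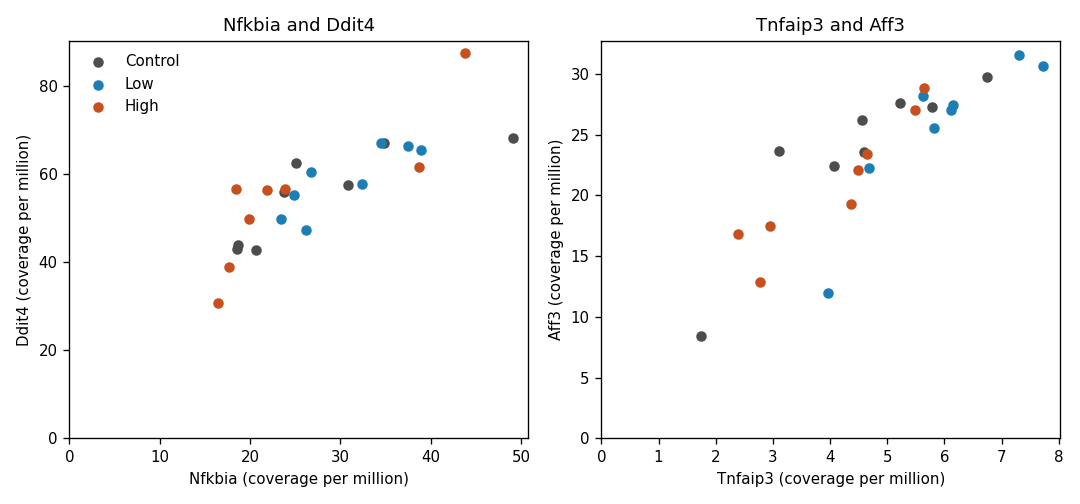
Scaled coverage of Nfkbia against Ddit4 (left) and of Tnfaip3 against Aff3 (right), with 1 point per library coloured by group. In both panels the libraries of the 3 groups lie along a common rise, with a Spearman rho of 0.896 and 0.905 after group means were removed.

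The wider pathway was described through 8 lists holding 132 other genes, of which 130 were found by name and 94 entered the fit. None of the 94 passed the threshold in Low against Control or in High against Control. In Low against High 6 passed, all higher in Low, a share of 6.38% beside 11.7% of all genes tested. The median log2 fold change over the 94 genes was 0.08 in Low against Control, -0.03 in High against Control and 0.11 in Low against High, beside 0.06, -0.03 and 0.09 over all genes tested. Without adjustment, p was under 0.05 for 14 (14.9%), 2 (2.13%) and 17 (18.1%) of the 94 genes, beside 18.4%, 2.11% and 29.1% of all genes tested.

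The 6 genes were spread over 4 lists. Among adaptors and kinases (1 of 22 tested), Birc2, a ubiquitin ligase of the tumour necrosis factor receptor complex, had a median of 20.9 in Low and 16.7 in High (log2 fold change 0.30, SE 0.0834, limma adjusted p = 0.0205). Among inhibitors and deubiquitinases (2 of 19), Tax1bp1, which brings A20 to its substrates, had medians of 109.9 and 97.0 (0.22, limma adjusted p = 0.0179). Tollip, which restrains interleukin-1 and Toll-like receptor signalling, had medians of 90.1 and 75.4 (0.22, limma adjusted p = 0.0496).
Among the NF-kB targets (2 of 7), Ptgs2, the inducible cyclooxygenase, had a median of 22.8 in Low and 14.03 in High (0.74, SE 0.222, limma adjusted p = 0.0313). Gadd45b, a stress-induced regulator, had medians of 17.6 and 13.7 (0.39, limma adjusted p = 0.0287). Both are also known to respond to neuronal activity, and the summed level of 10 of 10 immediate early genes was 451 to 1081 in Low against 156 to 656 in High and 363 to 720 in Control. The part of that difference in these values was not tested. Among the hyaluronan matrix genes (1 of 9), Hapln1, which links hyaluronan to proteoglycans, had medians of 23.0 and 18.6 (0.28, limma adjusted p = 0.0133).

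**Figure D5:**
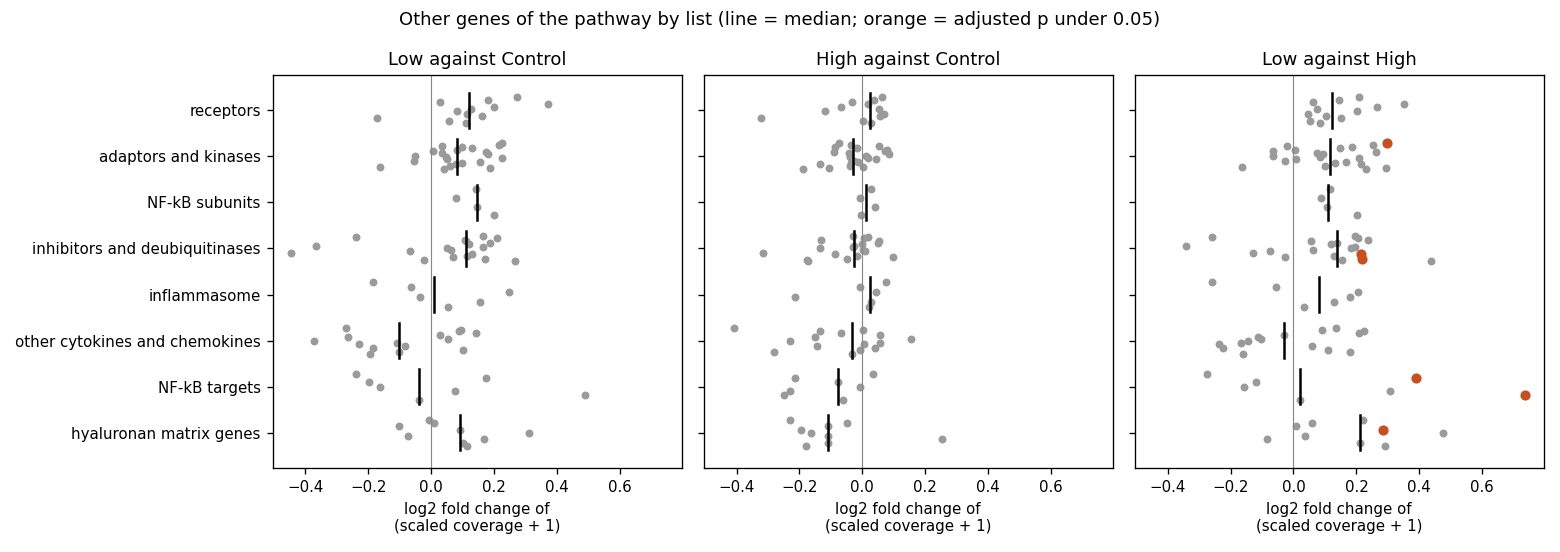
Log2 fold change of scaled coverage plus 1 for the 94 other pathway genes in the fit, by list, in the 3 comparisons. Each point is 1 gene, the line is the median of the list, and orange points passed the adjusted threshold. Orange points appear only in Low against High, where 6 genes were higher in Low.

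The remaining lists held no gene past the threshold. In Low against High, receptors had 0 of 12 (median 0.12) and NF-kB subunits 0 of 4 (median 0.11), with Rela, the main activating subunit, at 0.20 (SE 0.0718, limma adjusted p = 0.0656). The inflammasome had 0 of 6 (median 0.08) and other cytokines and chemokines 0 of 15 (median -0.03). Cx3cl1, the neuronal ligand of the microglial receptor Cx3cr1, was the most abundant of the genes named here, with medians of 340.4 (Control), 369.1 (Low) and 321.0 (High). Its log2 fold change was 0.09 (limma adjusted p = 0.702) in Low against Control and -0.14 (limma adjusted p = 0.999) in High against Control.
The count of 6 moved with the settings and the libraries kept, as did the calls over all genes. It was 0 with unscaled coverage (7.99% of all genes called) and 0 when a covariate marked libraries 56 to 62 (2.26% of all genes). That covariate marked Control library 56 and Low libraries 57 to 62, so that it largely overlapped with the Low group. Without High libraries 65 to 67 the count was 2, namely Birc2 and Rela, while the calls over all genes fell from 1828 to 930 (5.96%). Without libraries 49 and 57 it was 22, while they rose to 4514 (28.8%). Leaving out Low library 59, Low library 62 or High library 67 gave 2, 2 and 3 genes, where 8.2%, 8.08% and 8.88% of all genes were called.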

How the data were processed

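Values were read from 24 gene-abundance tables, 1 per rat, that the authors deposited. Per the labels and methods, reads were trimmed with Trimmomatic, aligned with TopHat2 and quantified with StringTie, in versions not given in the sources used here. The processing notes name mRatBN7.2, whereas scaffold names in the tables are those of another rat assembly, so that no gene coordinates are printed. The authors' coverage column is a signal, the mean read depth per base, and was summed per gene ID, divided by the library sum over reference genes and multiplied by 1000000. The deposited FPKM and TPM columns served as alternatives. In Control and High the deposited TPM values were treated as a score, because assembled loci alone sum to 1000000 there.

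Genes with a mean scaled coverage of at least 1 were fitted with limma 3.58.1 in R 4.3.3, with trend and robust settings, on log2(scaled coverage + 1) over all 24 libraries, with two-sided Benjamini-Hochberg adjusted p-values. A fold change on this scale understates the change of low genes. The fit was tested on simulated data with independent noise for each gene and library. Such data hold no effect shared within a library, so that they cannot show how calls move with the libraries kept. Members were also compared with two-sided exact permutation tests over all 12870 splits. All 10 members were named. For each other list, at most 3 genes were named, those past the threshold first and then the most abundant. Likeness was Spearman's rho after removing group means, and the 3 closest genes were named. Members and lists were chosen with earlier results of these data known. Groups came from the labels, library numbers do not repeat between groups, and p-values measure the spread between these rats, whose exposure sessions the labels do not name.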

Additional observations from a re-analysis of the deposited data

Results flagged for a closer look

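Of 30 sets of 8 values, 1 per member and group, 5 held a value that stood apart from the rest by Dixon's criterion. Chance would give 1.5 if the values followed a normal distribution, which was not tested. The Control set of Il6 and the Low set of Ccl2 each held 4 values at 0, so that 1.5 does not apply to such sets. Il6 was at 0.976 in Control library 52, against 0 to 0.374 in the other Control libraries. Ccl2 was at 0.621 in Low library 63, against 0 to 0.219. Tnfaip6 was at 5.71 in High library 65, against 1.65 to 3.48, and without that library the difference between Low and High changed sign, from -0.05 to 0.07. Tab3 was at 0.893 in Control library 49, against 3.87 to 5.56, and at 1.24 in Low library 57, against 4.43 to 6.06. Without Control library 49 the Tab3 difference between Low and Control was -0.06, and without Low library 57 it was 0.32.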

How the results depend on the processing

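With the FPKM column, 12393 of 13816 genes were called in Low against Control (12410 in Low against High) and the median change over the whole table moved from 0.06 to 0.53 and from 0.09 to 0.52 on the log2 scale. On that column 4 of 5 members and 65 pathway genes passed the threshold in each of these comparisons, so that the members moved with the whole table. With the TPM column the medians were 0.17 and 0.15, 0 members passed, and 16 and 19 of 92 pathway genes did, where 25.4% and 25.2% of all genes were called. Pathway genes past the threshold in Low against Control numbered 1 with median-of-ratios scaling and 4 when mitochondrial genes were left out of the sum. Over all genes 6.94% and 10.8% were called there. In Low against High they numbered 0 with unscaled coverage (7.99% of all genes called) and 0 when a covariate marked libraries 56 to 62 (2.26% of all genes). The following were chosen after seeing the data. Without High libraries 65 to 67 the count in Low against High was 2, and without Control library 49 and Low library 57 it was 22, where 1 member (Tnfaip3) also passed. In High against Control 1 gene (Hapln1) then passed, where 390 of all genes were called.

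Signs turned under some settings, in every case with an adjusted or exact permutation p above the threshold. With unscaled coverage, where the median of all genes was 0.14 in High against Control and -0.12 in Low against High, the value was 0.027 for Nfkbia, 0.074 for Tnfaip3, 0.15 for Tab3 and 0.032 for Il6 in High against Control, -0.18 for Il18, -0.024 for Tab3 and -0.016 for Ccl5 in Low against High, and -0.040 for Ccl2 in Low against Control. With median-of-ratios scaling it was -0.065 for Il18 in Low against High, 0.016 for Tab3 in High against Control and -0.00733 for Ccl2 in Low against Control. Without mitochondrial genes in the sum it was 0.000971 for Tab3 in High against Control and -0.00204 for Ccl2 in Low against Control. With a pseudocount of 0.1 it was 0.00290 for Tab3, 0.10 for Il6 and -0.067 for Ccl5 in High against Control and -0.17 for Ccl2 in Low against Control. With FPKM it was 0.20 for Tnfaip6, 0.012 for Il6 and 0.021 for Ccl2 in Low against High, 0.00591 for Tab3 in High against Control and 0.00243 for Il1b in Low against Control. With TPM it was 0.013 for Tab3 in High against Control, and the covariate gave 0.057 for Tnfaip6 in Low against High. Without High libraries 65 to 67 it was 0.17 for Tnfaip3 and 0.12 for Tab3 and -0.010 for Il1b in High against Control and 0.12 for Tnfaip6 and 0.052 for Il6 in Low against High. Without libraries 49 and 57 it was -0.023 for Il1b in High against Control and 0.0096 for Ccl2 in Low against High. The cause of these turns was not tested.

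Tnf in Low against Control passed the exact permutation test with FPKM (0.059, p = 0.0238), and in High against Control its difference of 0.15 had a limma adjusted p of 1 with no filter. At a level of at least 0.1, Tnf was detected in 2 Control libraries in place of 7.

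With each library left out in turn, the count of members past the threshold in Low against High ran from 0 to 1. The 1 was Tnfaip3 without Control library 49, where 17.1% of all genes were called. The log2 fold change of Tnfaip3 in Low against High ran from 0.38 to 0.53. Pathway genes past the threshold ran from 0 to 1 in Low against Control and from 2 to 8 in Low against High. The share of all genes called ran from 4.32% to 7.83% and from 8.08% to 17.1%. In Low against High the pathway genes were 2, 2 and 3 without Low libraries 59 and 62 and High library 67. In Low against High the value ran from -0.038 to 0.083 for Il18, -0.12 to 0.071 for Tnfaip6, -0.092 to 0.010 for Il6, -0.090 to 0.011 for Ccl2 and -0.037 to 0.18 for Ccl5. In High against Control it ran from -0.22 to 0.051 for Tab3, -0.056 to 0.083 for Il1b, -0.072 to 0.075 for Il6, -0.00764 to 0.049 for Ccl2 and -0.089 to 0.13 for Ccl5. In Low against Control it ran from -0.063 to 0.32 for Tab3, -0.12 to 0.044 for Il6, -0.070 to 0.030 for Ccl2 and 0.069 to 0.11 for Tnf, whose exact permutation p was 0.0286 without Low library 58 and 0.0491 without Control library 53.

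No paired analysis was possible because library numbers do not repeat between groups. With no filter, a fit of only the groups compared, or limma without trend and robust settings, 0 members passed, and 6, 9 and 6 pathway genes passed in Low against High. Over all genes 7.85%, 13% and 11.1% were called there. A minimum mean of 5 left only Nfkbia of the members in the fit, so that it says nothing of the other 4. It gave 5 of 56 pathway genes in Low against High, where 10.1% of all genes were called. Calls over all genes in Low against Control fell from 956 to 556 with that minimum and to 566 with only the groups compared. Depth limits the 5 members near 0, whose counting error is unknown.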
